A study of Homo sapiens with 15 samples.

Results

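HT115 cells, a colorectal cancer line, labelled as induced to express wild-type SOX9 were compared by RNA sequencing with HT115 cells labelled as induced to express GFP. SOX9 reads were higher in the libraries labelled wild type by a log2 difference of 0.84, which missed the test in the main fit. Whether these libraries carry the labelled induction is therefore not settled by the counts, and CSOX9 below names the label. The comparison covers every gene that passed the expression filter, 16160 of the 60671 genes in the count table, in 6 of the 15 poly(A) RNA sequencing libraries of the series. The control group is GFP (3 libraries), and the wild-type group, named CSOX9 in the labels, carries V5-tagged full wild-type SOX9 (3 libraries). The other 9 libraries hold V5-tagged mutant SOX9, M228, M303 or M379, at 3 each. M303 is a truncated protein per the series text, and the names M228 and M379 are not explained by the labels. All 5 groups received doxycycline at 0.5 µg/ml for 24 h, so the drug itself is common to both sides of the comparison. Whether a cell line is a single clone or a pool is not stated. The series text and treatment protocol speak of 6 experiments in duplicate, whereas the labels give 5 groups of 3 libraries. Separate cultures are not named, so the p-values below measure the spread between libraries, which may be technical.

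SOX9 is a transcription factor with an HMG box that binds short ACAAT- and ACAAAG-like sites. In the intestine it is expressed at the crypt base, downstream of WNT signalling, and it takes part in making Paneth cells. In cartilage it works with SOX5 and SOX6 to switch on collagen and proteoglycan genes. Its gene is often mutated, mainly to truncated forms, in colorectal tumours.

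Levels are CPM, read counts scaled to library size with TMM factors, and differences are log2 fold changes ± standard error from edgeR's quasi-likelihood test fitted to all 15 libraries. The standard error is the size of the fold change divided by the square root of the test's F value. A gene is called when its Benjamini-Hochberg adjusted p over the 16160 genes is under 0.05. The 6 libraries held from 3054755 reads (GFP replicate 1) to 19781935 reads (CSOX9 replicate 1), within a series range up to 31704249. GFP replicate 2 stood apart from the other 14 libraries. Its genes with few exon bases in total were high and those with many were low. Its median log2 deviation from the mutant mean was 0.51 in the 2487 genes with the fewest and -0.57 in the 2487 with the most. Ribosomal protein genes took 4.35% of its reads, against 2.45% and 2.91% in the other GFP libraries and 2.27% to 2.67% in CSOX9. The median dispersion within GFP was 0.0975, within CSOX9 0.0104 and within the mutant groups 0.0155 to 0.0232. The fit pools the spread over all groups, so standard errors and p-values against GFP can understate the spread of GFP. A fit of the CSOX9 and GFP libraries alone called 0 genes. The 5 genes called below each had an edgeR adjusted p of 0.855 there. For the named genes and the lists, values without GFP replicate 2 are given below where they turned the direction or moved by over 1.5 times. The cells read as epithelial: all 10 epithelial and colorectal markers passed the filter, with EPCAM, an epithelial adhesion gene, at 897 to 1107 CPM in the 6 libraries. Of 18 fibroblast, endothelial and immune markers, 4 passed it, and these summed to 4.16 to 8.01 CPM in GFP and 5.06 to 5.84 in CSOX9. PDGFRA, CDH5, CD3E and LYVE1 had 0 reads in all 6 libraries. These markers test neither which cell line it is nor which construct it carries.

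SOX9 itself (ENSG00000125398, chr17:72121020-72126416, plus strand of GRCh38) was higher in the CSOX9 libraries than in GFP, though not called. It measured 97.6, 100.8 and 158 CPM in GFP replicates 1 to 3 and 243, 210 and 186 CPM in the CSOX9 replicates. The groups did not overlap, but GFP replicate 3 came close to CSOX9 replicate 3. The difference, 0.84 ± 0.18, missed the threshold (edgeR adjusted p = 0.110). SOX9 was called in 3 of 9 alternative settings. DESeq2 called it (DESeq2 adjusted p = 0.00233), as did edgeR without the filter (edgeR adjusted p = 0.000536). These settings tested 37338 and 37339 genes, against 16160 in the main fit. With the replicate number as a block SOX9 was also called (0.86, edgeR adjusted p = 0.0381). The fit of CSOX9 and GFP libraries alone did not call it (edgeR adjusted p = 0.855). Neither did limma voom with quality weights (0.62, limma adjusted p = 0.0888). The smallest difference, 0.61, came from replicates 2 and 3 of every group and was not called (edgeR adjusted p = 0.414). Leaving out GFP replicate 3 gave a called difference of 1.10 (edgeR adjusted p = 0.0183), and leaving out GFP replicate 2 gave 0.72 (edgeR adjusted p = 0.220). The mutant libraries held 1900 to 3039 CPM of SOX9, all far above CSOX9, and CSOX9 was lower than their mean by a log2 difference of -3.50 ± 0.18 (edgeR adjusted p = 4.63e-08). The table has 1 row for SOX9, so reads of the cells' own gene and of the introduced one were not separated.

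Only 5 genes were called between CSOX9 and GFP, 0.0309% of those tested. APCDD1, HUNK, KLK7 and RIPK4 rose (0.0248%) and MIR9-1HG fell (0.00619%). Among the 4 that rose are a WNT inhibitor, a protein kinase gene and 2 genes of the epidermal barrier. Looser criteria took in more genes: 1723 genes (10.7%) had an unadjusted p under 0.05 in the edgeR test. In 1899 (11.8%) the 3 CSOX9 libraries did not overlap the 3 GFP libraries, with 6.6% higher and 5.15% lower. With 3 libraries against 3, chance alone can give most of the share without overlap, and nearly all of its lower side. It can also give part of the share with an unadjusted p under 0.05. Neither share therefore counts genes that differ, and lack of overlap in a single gene is weak evidence. Fold changes were small for most genes. The median over all genes was 0.0073 and the middle 90% ran from -0.61 to 0.60, while 209 genes lay more than 1 log2 unit higher and 160 more than 1 lower. None of the 5 calls was kept without GFP replicate 2: each had an edgeR adjusted p of 0.0635 there, and 1036 genes had an unadjusted p under 0.05 in that fit. All 5 were kept without GFP replicate 3, when 40 genes were called. They were also kept with the replicate number as a block, when 79 genes were called.

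**Figure D1:**
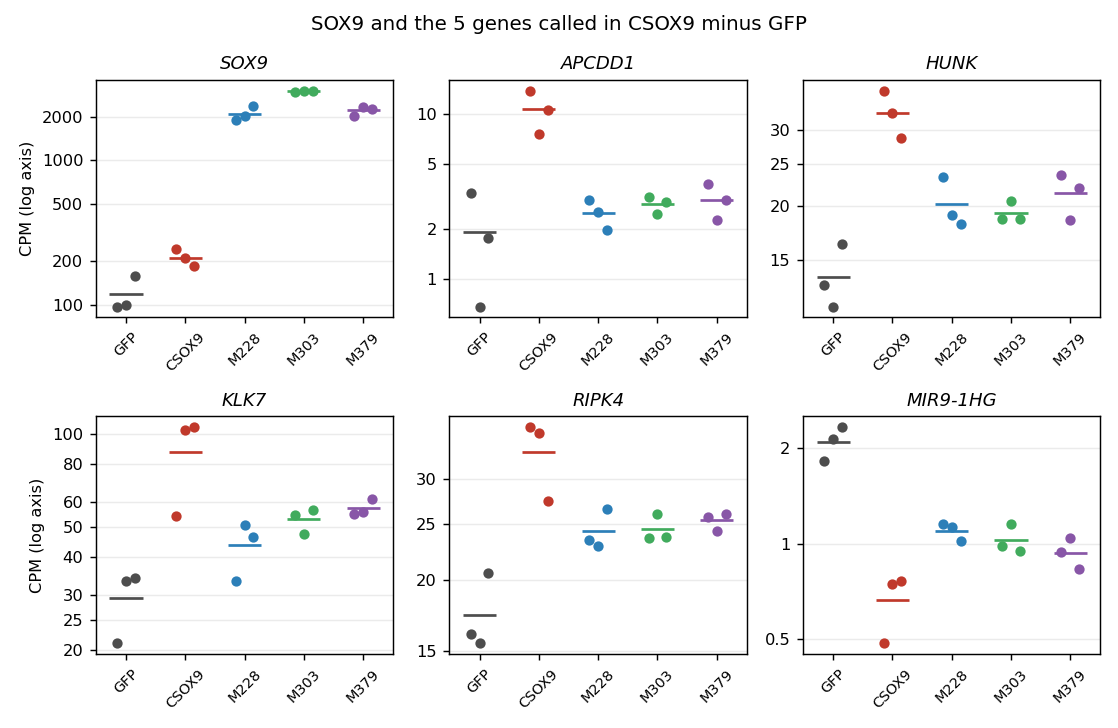
CPM on a log axis in each library (points, replicates 1 to 3 from left to right) with the group mean (bar) for SOX9 and the 5 called genes in the 5 groups. SOX9 is at 186 to 243 CPM in CSOX9 and at 1900 CPM or more in the mutants, while APCDD1 is at 7.60 CPM or more only in the 3 CSOX9 libraries.

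APCDD1 (ENSG00000154856, chr18:10454635-10489949, plus strand) encodes a membrane protein that binds WNT ligands and their co-receptor and dampens WNT signalling. It measured 3.35, 0.68 and 1.77 CPM in GFP, on 11, 8 and 29 reads, and 13.9, 7.60 and 10.6 CPM in CSOX9. Every CSOX9 library was above every GFP library, and GFP replicate 2 was the lowest of all. The rise was 2.74 ± 0.38 (edgeR adjusted p = 0.0227), the largest fold change among the called genes, and it was called in 4 of the 6 fits that left out 1 library (2.29 to 3.06). Against the mean of the mutants, whose libraries measured 1.98 to 3.76 CPM, APCDD1 was higher by 1.95 ± 0.24 (edgeR adjusted p = 0.00119). That contrast shares the CSOX9 libraries with the one against GFP.

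HUNK (ENSG00000142149, chr21:31873020-32044633, plus strand), a serine/threonine kinase gene of the SNF1-related family, had the smallest p of all genes. Its levels were 13.1, 11.7 and 16.3 CPM in GFP and 37.2, 32.9 and 28.9 CPM in CSOX9, with a wide gap between the groups. It rose by 1.26 ± 0.16 (edgeR adjusted p = 0.0197). The mutants lay between, at 18.1 to 23.6 CPM, and CSOX9 was above their mean by 0.70 ± 0.12 (edgeR adjusted p = 0.0109). HUNK was called in 2 of the 6 fits with a library left out.

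KLK7 (ENSG00000169035, chr19:50976468-50984099, minus strand) and RIPK4 (ENSG00000183421, chr21:41739369-41767089, minus strand) both belong to the kallikrein and epidermal barrier list. KLK7 is a secreted serine protease that cleaves junction proteins in the outer skin, and RIPK4 is a kinase needed for keratinocytes to differentiate. KLK7 measured 20.98, 33.4 and 34.1 CPM in GFP and 54.0, 103 and 105 CPM in CSOX9. CSOX9 replicate 1 was the lowest of its group and still above all GFP libraries. The rise was 1.54 ± 0.24 (edgeR adjusted p = 0.0432). RIPK4 measured 16.1, 15.5 and 20.6 CPM in GFP and 36.9, 36.0 and 27.4 CPM in CSOX9, with CSOX9 replicate 3 the nearest to GFP. Its rise was 0.93 ± 0.15 (edgeR adjusted p = 0.0432), and 11.5% of its exon bases overlap a gene on the other strand, which the counting did not separate. Neither was called against the mutants, where the differences were 0.78 ± 0.18 for KLK7 and 0.44 ± 0.11 for RIPK4 (edgeR adjusted p = 0.0597 and 0.108). Each was called in 2 of the 6 fits without 1 library.

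MIR9-1HG (ENSG00000125462, chr1:156404250-156456763, minus strand), the host gene of a microRNA, was the only gene called lower. It measured 1.82, 2.13 and 2.33 CPM in GFP and 0.486, 0.746 and 0.764 CPM in CSOX9. The groups were well apart, on few reads: 6, 25 and 38 in GFP and 10, 11 and 8 in CSOX9. It fell by 1.73 on the log2 scale (SE 0.26, edgeR adjusted p = 0.0422) and was called in 1 of the 6 fits without a library. The mutants lay between, at 0.832 to 1.15 CPM, and the difference from them was -0.65 ± 0.23 (edgeR adjusted p = 0.375). Poly(A) libraries count the host transcript and not the mature microRNA.

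Promoter windows from RefSeq, GRCh38.p14, run from 250 bases before to 50 after the annotated start, and 21 of the 26 genes looked for were matched (SOX9, all called genes and the 24 genes taken by p below); RIPK4, SOX9, COL6A1, TMEM132A and EIF1P5 were not. They are shown for the 3 called genes that rose and have an entry, and for SOX6, whose window is the 1 among the genes higher in CSOX9 that holds a SOX core. The windows are chr18:10454385-10454684 (plus strand) for APCDD1, chr21:31872770-31873069 (plus strand) for HUNK, chr19:50983868-50984167 (minus strand) for KLK7 and chr11:16738428-16738727 (minus strand) for SOX6. Capitals mark the SOX core ACAAT or its reverse complement ATTGT, searched on both strands together with ACAAAG and its reverse complement CTTTGT.
APCDD1: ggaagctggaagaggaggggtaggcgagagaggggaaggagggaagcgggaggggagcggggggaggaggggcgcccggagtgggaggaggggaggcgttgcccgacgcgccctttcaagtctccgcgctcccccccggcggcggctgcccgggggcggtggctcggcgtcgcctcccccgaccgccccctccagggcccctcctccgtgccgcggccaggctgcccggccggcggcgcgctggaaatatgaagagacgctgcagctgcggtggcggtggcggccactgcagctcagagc
HUNK: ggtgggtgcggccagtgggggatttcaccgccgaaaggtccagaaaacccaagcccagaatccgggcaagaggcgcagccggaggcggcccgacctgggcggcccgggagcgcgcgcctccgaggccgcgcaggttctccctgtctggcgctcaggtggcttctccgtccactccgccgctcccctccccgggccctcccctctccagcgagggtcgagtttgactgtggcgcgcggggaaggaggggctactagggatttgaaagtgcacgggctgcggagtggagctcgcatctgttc
KLK7: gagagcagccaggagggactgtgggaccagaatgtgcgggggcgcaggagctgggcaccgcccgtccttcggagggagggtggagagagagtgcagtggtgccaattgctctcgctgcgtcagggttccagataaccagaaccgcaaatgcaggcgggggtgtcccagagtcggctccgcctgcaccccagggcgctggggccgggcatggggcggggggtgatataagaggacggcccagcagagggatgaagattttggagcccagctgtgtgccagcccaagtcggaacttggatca
SOX6: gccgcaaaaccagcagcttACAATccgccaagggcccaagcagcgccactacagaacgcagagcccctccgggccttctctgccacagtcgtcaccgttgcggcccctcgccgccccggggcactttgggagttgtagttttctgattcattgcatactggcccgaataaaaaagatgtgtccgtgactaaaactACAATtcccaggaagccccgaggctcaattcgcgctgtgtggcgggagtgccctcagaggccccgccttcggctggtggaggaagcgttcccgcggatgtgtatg
The SOX6 window holds ACAAT 2 times, and the APCDD1, HUNK and KLK7 windows hold neither core. Among 11027 promoters of tested genes, 16.7% hold ACAAT, 10.8% ACAAAG, and 2762 of them hold at least 1 of these cores. None of the 4 called genes with an entry holds either core. Of the 12 genes with the smallest p on the higher side 10 had an entry and 1 held a core, and on the lower side 3 of 10 did (PHGDH, MACROH2A2 and SLC43A1). The WNT effector core ATCAAAG, found in 1.49% of the promoters of tested genes, was in none of these windows. GC content was 76.0% in the APCDD1 window, 69.7% in HUNK, 65.0% in KLK7 and 60.0% in SOX6, with a median of 65.0% over promoters of tested genes. A match or its absence describes these letters only. The first listed window of each gene was taken, so any other start of the gene was not searched.

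Behind the called genes, the 12 genes with the smallest p on each side were taken from those with a mean of at least 1 on the log2 CPM scale and groups that do not overlap. On the higher side they were the 4 called genes and 8 that were not called. SOX6, a SOX factor that partners SOX9 in cartilage, measured 1.22, 0.596 and 1.28 CPM in GFP and 9.05, 4.48 and 3.06 CPM in CSOX9, a difference of 2.48 ± 0.46 (edgeR adjusted p = 0.0795). Its GFP values rest on 4, 7 and 21 reads. All CSOX9 libraries were above all mutant libraries too (0.780 to 2.01 CPM), and against the mutants SOX6 was higher by 2.02 ± 0.29 (edgeR adjusted p = 0.00393). CXCR4, the receptor for the chemokine CXCL12, measured 1.82, 3.92 and 3.12 CPM in GFP and 8.02, 6.92 and 6.21 in CSOX9, 1.16 ± 0.23 apart (edgeR adjusted p = 0.105). It was higher than in the mutants by 1.66 ± 0.17 (edgeR adjusted p = 0.000212). HEG1, which encodes a mucin-like transmembrane receptor, measured 17.3, 9.97 and 27.4 CPM in GFP and 60.7, 50.3 and 40.0 in CSOX9, 1.45 ± 0.27 apart (edgeR adjusted p = 0.0795), and CSOX9 was above the mutants by 0.97 ± 0.20 (edgeR adjusted p = 0.0288). Groups without overlap were a condition for taking these 3 genes, so this is not a further result. GFP replicate 2 was the lowest GFP library for SOX6 and HEG1.

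The other 5 genes of the higher side were SHROOM4, an actin-binding regulator of cell shape, COL6A1, a chain of collagen VI, CES2, an intestinal carboxylesterase, PCSK5, a proprotein convertase, and PLCL2, a phospholipase C relative. Their differences from GFP were 1.40 ± 0.23, 0.82 ± 0.14, 0.73 ± 0.13, 1.18 ± 0.21 and 0.69 ± 0.13, with edgeR adjusted p of 0.0574, 0.0765, 0.0765, 0.0795 and 0.105. CES2 measured 38.3, 45.1 and 41.1 CPM in GFP and 71.5, 75.2 and 60.9 in CSOX9. Against the mutants, CES2 was higher by 0.56 ± 0.10 and PLCL2 by 0.47 ± 0.10 (edgeR adjusted p = 0.0129 and 0.0455). SHROOM4 lay 0.11 ± 0.17 from the mutants, and it was called higher than GFP in M303 and M379 (1.56 ± 0.23 and 1.44 ± 0.23, edgeR adjusted p = 0.0142 and 0.0487). Some of the 8 genes were called with 1 library left out: SHROOM4, PCSK5, HEG1 and PLCL2 without GFP replicate 3 (1.53, 1.47, 1.97 and 0.84, edgeR adjusted p = 0.0496, 0.0203, 0.00965 and 0.0449), and SHROOM4, COL6A1 and SOX6 without CSOX9 replicate 3 (1.58, 0.96 and 2.75, edgeR adjusted p = 0.0279, 0.0279 and 0.0431).

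None of the 12 genes on the lower side was called. PHGDH, the first enzyme of serine synthesis, measured 7.60, 12.9 and 8.08 CPM in GFP and 4.52, 3.32 and 4.59 in CSOX9, a difference of -1.23 ± 0.25 (edgeR adjusted p = 0.106). Its CSOX9 libraries were below all 12 others, and the difference from the mutants was -1.08 ± 0.21 (edgeR adjusted p = 0.0222). ITGA5, the alpha chain of the main fibronectin receptor, measured 7.60, 7.50 and 9.67 CPM in GFP and 3.16, 4.61 and 4.30 in CSOX9, -1.07 ± 0.23 apart (edgeR adjusted p = 0.117). It was lower than in the mutants by a difference of -0.93 ± 0.19 (edgeR adjusted p = 0.0302). BEX3, a small adaptor gene on the X chromosome, stood at 2.74, 6.39 and 4.53 CPM in GFP and 1.65, 1.76 and 1.82 in CSOX9, with -1.47 ± 0.29 against GFP and -1.14 ± 0.25 against the mutants (edgeR adjusted p = 0.105 and 0.0388).

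Among the other 9 were TMEM132A, CD276, an immune checkpoint ligand of the B7 family, and SPECC1, a cytoskeletal linker gene. Their differences from GFP were -0.69 ± 0.16, -0.54 ± 0.13 and -0.57 ± 0.14 (edgeR adjusted p = 0.140, 0.178 and 0.197), and from the mutants -0.69 ± 0.13, -0.60 ± 0.11 and -0.60 ± 0.11 (edgeR adjusted p = 0.0171, 0.0117 and 0.0167). MACROH2A2, a histone variant gene, SLC43A1, an amino acid transporter gene, RGS10, a regulator of G protein signalling, TGIF2, a corepressor of TGF-beta signalling, and IFT46, a ciliary transport gene, lay -0.94 to -0.68 from GFP and were not called in either contrast. EIF1P5 is a pseudogene of a translation initiation factor, so its reads, -1.22 ± 0.26 against GFP, are uncertain. Leaving out GFP replicate 2 put RGS10 at -0.44 (edgeR adjusted p = 0.515), and leaving out GFP replicate 3 gave calls for MACROH2A2 (-1.09) and EIF1P5 (-1.45), each with an edgeR adjusted p of 0.0496.

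**Figure D2:**
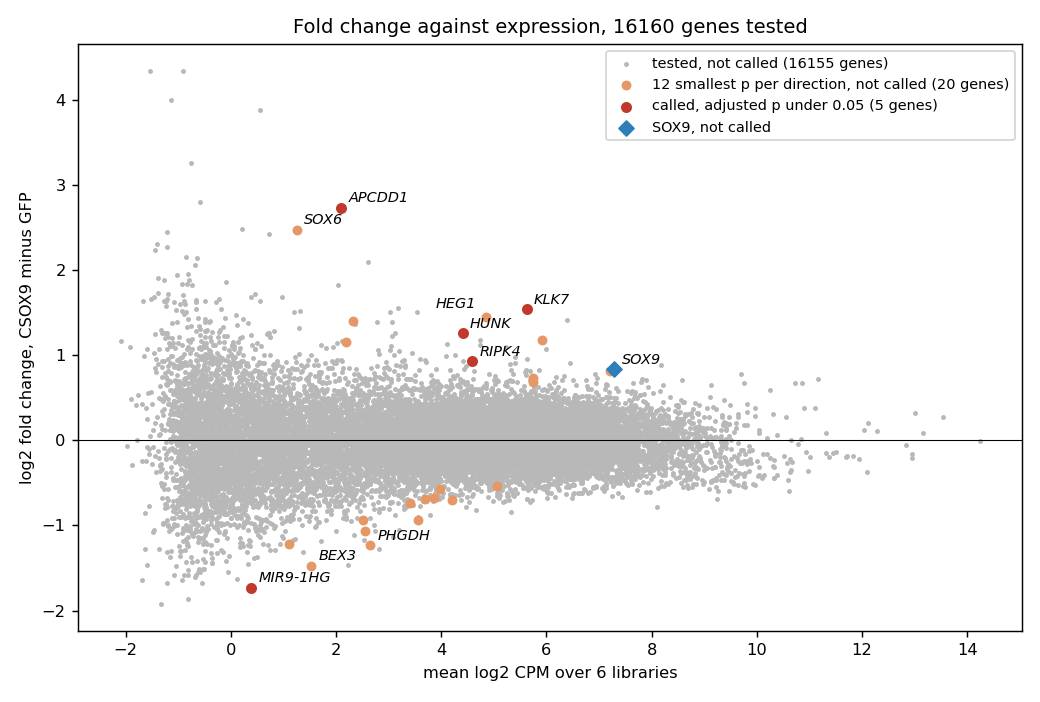
Log2 fold change (CSOX9 minus GFP, vertical axis) against the mean log2 CPM of the 6 libraries (horizontal axis) for the 16160 genes tested. The 5 called genes are red, the 20 others among the 12 smallest p on each side are orange, and SOX9 is the blue diamond at 0.84; most genes lie between -0.61 and 0.60.

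Cartilage genes were mostly silent in these cells. Of 18 genes that SOX9 regulates in cartilage, 7 passed the filter, 0 were called and 2 did not overlap, both higher, against 6.6% of all genes. The marker cartilage collagen COL2A1 had 1 read in the GFP libraries and 0 in CSOX9, and the proteoglycan gene ACAN had 0 in both. Besides SOX6, COL9A3, a chain of the minor cartilage collagen IX, measured 1.52, 3.07 and 1.96 CPM in GFP and 12.7, 5.90 and 5.64 in CSOX9, a difference of 1.83 ± 0.36 (edgeR adjusted p = 0.105). Its GFP values rest on 5, 36 and 32 reads. COL9A3 was also high in M303 (15.1 to 23.0 CPM) and M379 (11.6 to 21.7 CPM), both called against GFP, and not in M228 (3.11 to 3.50 CPM), and CSOX9 lay -0.31 ± 0.25 from the mutants' mean. COL9A2, COL11A2, SNORC, FGFR3 and CHADL overlapped between the groups, and the list median was 0.13 against 0.0073 over all genes, and -0.22 without GFP replicate 3. Of 18 other SOX genes 9 passed the filter, with SOX6 and SOX30 higher and not overlapping, and the list median was 0.17. SOX30 stood at 0.767 to 1.22 CPM in GFP and 1.51 to 2.10 in CSOX9.

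Enterocyte and colonocyte genes had a median of 0.51 over 22 tested of 32, with 0 called. It was the highest of the 31 lists, a rank that the epidermal list takes without GFP replicate 2 (0.44 against 0.39). In 6 of them all CSOX9 libraries were above all GFP libraries and in 1 they were below, against 6.6% and 5.15% of all genes, and 9 had an unadjusted p under 0.05 on the higher side (4.93% of all genes). KRT20, the keratin of mature colonocytes, measured 597, 621 and 703 CPM in GFP and 954, 1335 and 1004 in CSOX9, 0.78 ± 0.18 apart (edgeR adjusted p = 0.139). The membrane mucin gene MUC13 measured 1311, 1459 and 1645 CPM in GFP and 2531, 2496 and 2036 in CSOX9, 0.68 ± 0.16 apart (edgeR adjusted p = 0.167). CEACAM5, the carcinoembryonic antigen gene, measured 467, 403 and 468 CPM in GFP and 644, 819 and 640 in CSOX9, 0.65 ± 0.14 apart (edgeR adjusted p = 0.106). The 3 genes had no overlap between the groups, and all were called higher than the mean of the 3 mutants, by 0.63 ± 0.14, 0.56 ± 0.12 and 0.49 ± 0.11 (edgeR adjusted p = 0.0422, 0.0437 and 0.0431). The mutants were not alike in this: M228 reached 1101 CPM for KRT20 and 567 to 718 CPM for CEACAM5, overlapping CSOX9, while CEACAM5 stood at 403 to 478 CPM in M303 and M379. CEACAM5 has close relatives in its family, which may share reads with it.

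The membrane mucins MUC17 and MUC12 were not called against GFP, where MUC17 lay 1.41 ± 0.43 higher on a wide GFP spread (100, 17.0 and 61.7 CPM, against 128, 213 and 122 in CSOX9). Against the mutants both were called, MUC17 by 2.08 ± 0.32 and MUC12 by 1.20 ± 0.18 (edgeR adjusted p = 0.00449 and 0.00401). Other members did not share this: the digestive enzyme gene ALPI, the lipid carrier gene FABP2 and the brush border gene VIL1 lay at -0.37, -0.27 and -0.07. In bulk RNA, more cells expressing a gene and more RNA per cell cannot be told apart. The list median was 0.39 without GFP replicate 2 and 0.24 to 0.62 over the 6 fits with a library left out.

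**Figure D3:**
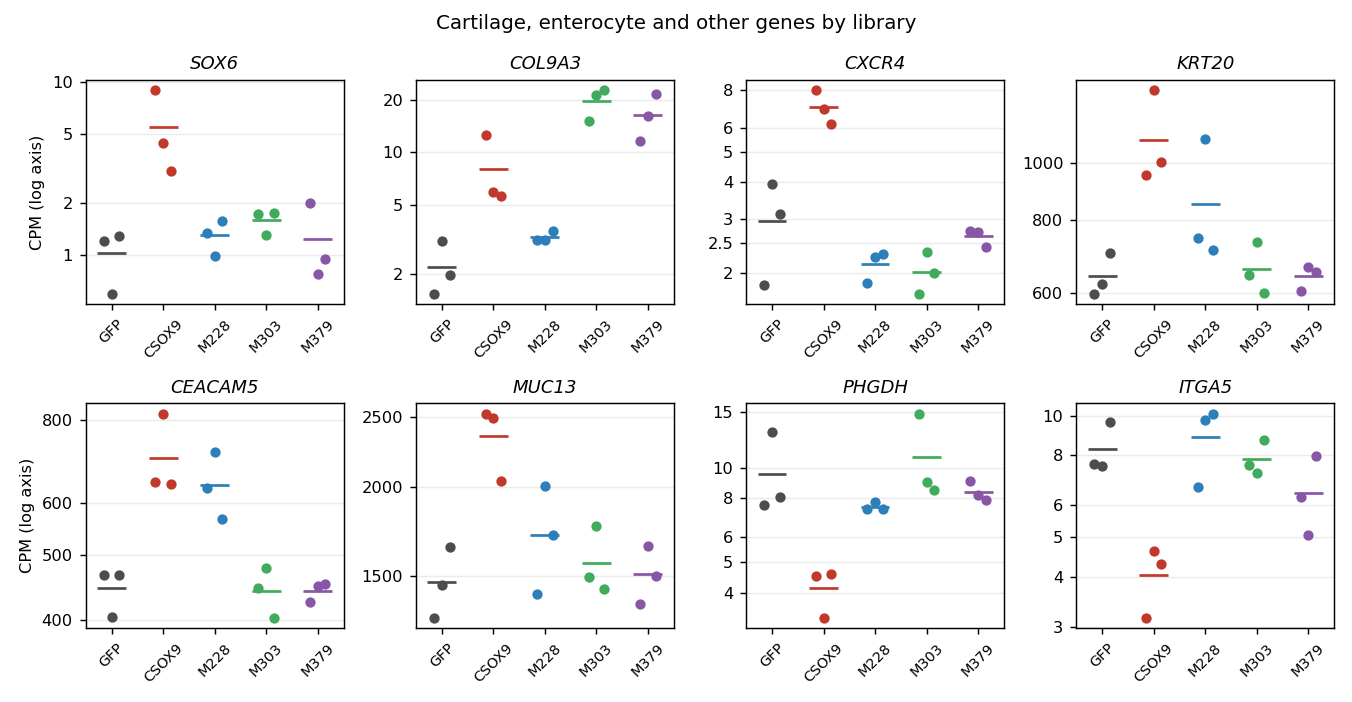
CPM on a log axis in each library (points, replicates 1 to 3 from left to right) with the group mean (bar) for 8 genes that were not called against GFP. SOX6, CXCR4 and MUC13 are highest in CSOX9 (3.06 to 9.05 CPM for SOX6), PHGDH and ITGA5 are lowest there, and COL9A3 is highest in M303 and M379.

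The kallikrein and epidermal barrier list held 2 calls: of 15 tested of 23, KLK7 and RIPK4 rose, where 0.0248% of all genes did, and 0 fell. Their median was 0.42, and 14 of the 15 were positive, with 6 above all GFP libraries and 0 below, against 6.6% and 5.15% of all genes. This list and the others were chosen with earlier results of these data known. Comparisons of a list with all genes are therefore descriptions and not independent tests. KLK6, a neighbouring kallikrein gene, measured 4.87, 9.54 and 7.46 CPM in GFP and 11.1, 14.5 and 13.9 in CSOX9, 0.78 ± 0.22 apart (edgeR adjusted p = 0.391). Its difference from the mutants was -0.12 ± 0.17, and 20.5% of its exon bases overlap a gene on the other strand. GRHL1, a grainyhead transcription factor of the epidermis, measured 5.71 to 8.75 CPM in GFP and 9.27 to 10.5 in CSOX9. SLPI, a secreted protease inhibitor, was the 1 negative member (-0.57). Without GFP replicate 2 the list median was 0.44.

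Extracellular matrix and integrin genes had a median of 0.31 over 21 tested of 24, with 0 called. In 7 of them CSOX9 lay above all GFP libraries, against 6.6% of all genes. These included COL6A1 (109, 119 and 109 CPM in GFP, 221, 216 and 158 in CSOX9), ITGB4, the hemidesmosome integrin chain (558, 552 and 576 against 777, 849 and 721), and COL17A1, the hemidesmosome collagen (180, 101.3 and 181 against 228.5, 238 and 222). ITGB4 lay 0.48 ± 0.11 and COL17A1 0.58 ± 0.20 above GFP (edgeR adjusted p = 0.155 and 0.431), and COL17A1 lay 0.35 above it without GFP replicate 2 (edgeR adjusted p = 0.728). The basement membrane chains COL4A1, COL4A5 and COL4A2 lay on the other side, at -0.95, -0.89 and -0.45. The list median was 0.17 without GFP replicate 2.

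WNT targets and feedback genes held 1 call, APCDD1, among 22 tested of 24, and their median was 0.026. It was 0.064 to 0.31 in the 6 fits that left out 1 library. The classical targets AXIN2, MYC, ASCL2 and RNF43 lay between -0.034 and 0.033 on the log2 scale, with AXIN2 at 179 to 232 CPM in GFP and 196 to 211 in CSOX9. Counting APCDD1, 6 members had CSOX9 above all GFP libraries, against 6.6% of all genes. The other 5 were the transcription factor genes TCF7, LEF1 and TCF7L2, ZNRF3, a ligase that removes WNT receptors, and the receptor gene TNFRSF19. TCF7 measured 44.1, 50.1 and 53.9 CPM in GFP and 68.6, 64.9 and 64.0 in CSOX9, 0.41 ± 0.11 apart (edgeR adjusted p = 0.328). It was higher than in the mutants by 0.59 ± 0.09 (edgeR adjusted p = 0.00389), whereas LEF1, 0.43 ± 0.15 above GFP, lay 0.017 ± 0.12 from them and was 0.25 above GFP without GFP replicate 2.

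Crypt stem cell genes were slightly positive, with a median of 0.20 over 16 tested of 19, 14 of them above 0, and 0 called. LGR5, the receptor that marks crypt base stem cells, measured 53.8, 24.4 and 72.1 CPM in GFP and 68.1, 54.1 and 61.8 in CSOX9, so the groups overlapped. Its difference of 0.29 ± 0.27 turned to -0.059 without GFP replicate 2, its lowest library. PROM1, another stem cell marker, overlapped too (44.8 to 91.8 against 62.8 to 120 CPM, 0.47 ± 0.30, and 0.29 without GFP replicate 2). LRIG1, an inhibitor of growth factor receptors, measured 45.3, 23.6 and 51.3 CPM in GFP and 86.6, 58.4 and 65.2 in CSOX9, 0.81 ± 0.23 apart (edgeR adjusted p = 0.382), and 0.53 apart without GFP replicate 2. MSI1, an RNA-binding protein gene of stem cells, had 1 read in the 3 GFP libraries together and 37 in CSOX9. That is a ratio of 25.4 with an exact 95% counting interval of 4.28 to 1030. The interval pools the reads of each group and leaves out the spread between libraries. Of the 37 reads, 22 came from CSOX9 replicate 1. MSI1 was not called (edgeR adjusted p = 0.124), and the mutants measured 0.282 to 1.49 CPM, with CSOX9 0.16 ± 0.39 from their mean. The list median was 0.055 without GFP replicate 2.

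Paneth and goblet cell genes were not called in either direction. Of 12 Paneth cell genes 5 passed the filter, 3 positive and 2 negative, with a median of 0.23. The Paneth cell genes DEFA5 and DEFA6 had 0 reads in GFP and in CSOX9, and REG3A (-1.06) and EPHB3 (-0.44) were the 2 negative members. LYZ, the lysozyme gene of Paneth cells, measured 2429, 1404 and 1615 CPM in GFP and 3543, 2866 and 2567 in CSOX9, 0.72 ± 0.26 apart (edgeR adjusted p = 0.437). Against the mutants, at 636 to 1554 CPM, LYZ was higher by 1.54 ± 0.20 (edgeR adjusted p = 0.00154), but 34.7% of its exon bases overlap a gene on the other strand. The 10 goblet cell genes tested of 17 had a median of -0.090, which turned to 0.20 without GFP replicate 2. The proliferation marker MKI67 (325 to 734 against 597 to 671 CPM) and the intestinal transcription factor gene CDX2 (227 to 393 against 274 to 365 CPM) overlapped between the groups, and both changed sign without GFP replicate 2.

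The 36 cytosolic ribosomal protein genes had a median of -0.44, the lowest of the lists, with all 36 negative, 24 with an unadjusted p under 0.05 (5.73% of all genes on the lower side) and 0 called. RPLP2 measured 544, 1285 and 566 CPM in GFP and 523, 478 and 492 in CSOX9, so 1 library, GFP replicate 2, held most of the difference. Without GFP replicate 2 the list median was -0.095 and no longer the lowest, and RPLP2 lay at -0.16. Integrated stress response genes had a median of -0.22 over 19 tested of 20, with 6 below all GFP libraries and 0 above, against 5.15% and 6.6% of all genes. ATF4, the transcription factor of that response, measured 159, 271 and 158 CPM in GFP and 154, 126 and 142 in CSOX9, and its difference of -0.48 was -0.17 without GFP replicate 2. TRIB3 and SESN2, targets of ATF4, lay at -0.47 ± 0.18 and -0.61 ± 0.24, and SLC7A11, the cystine transporter gene, at 0.71 ± 0.24. The value of SLC7A11 was 0.42 without GFP replicate 2 and 1.15, called, without GFP replicate 3 (edgeR adjusted p = 0.804 and 0.0496). The list median without GFP replicate 2 was -0.17. Mitosis genes had a median of -0.19 over 18 tested of 19, with UBE2C, a ubiquitin-conjugating enzyme gene of anaphase, at 79.7, 156 and 85.5 CPM in GFP and 78.9, 61.7 and 79.9 in CSOX9. Its difference of -0.55 was -0.17 without GFP replicate 2.

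**Figure D4:**
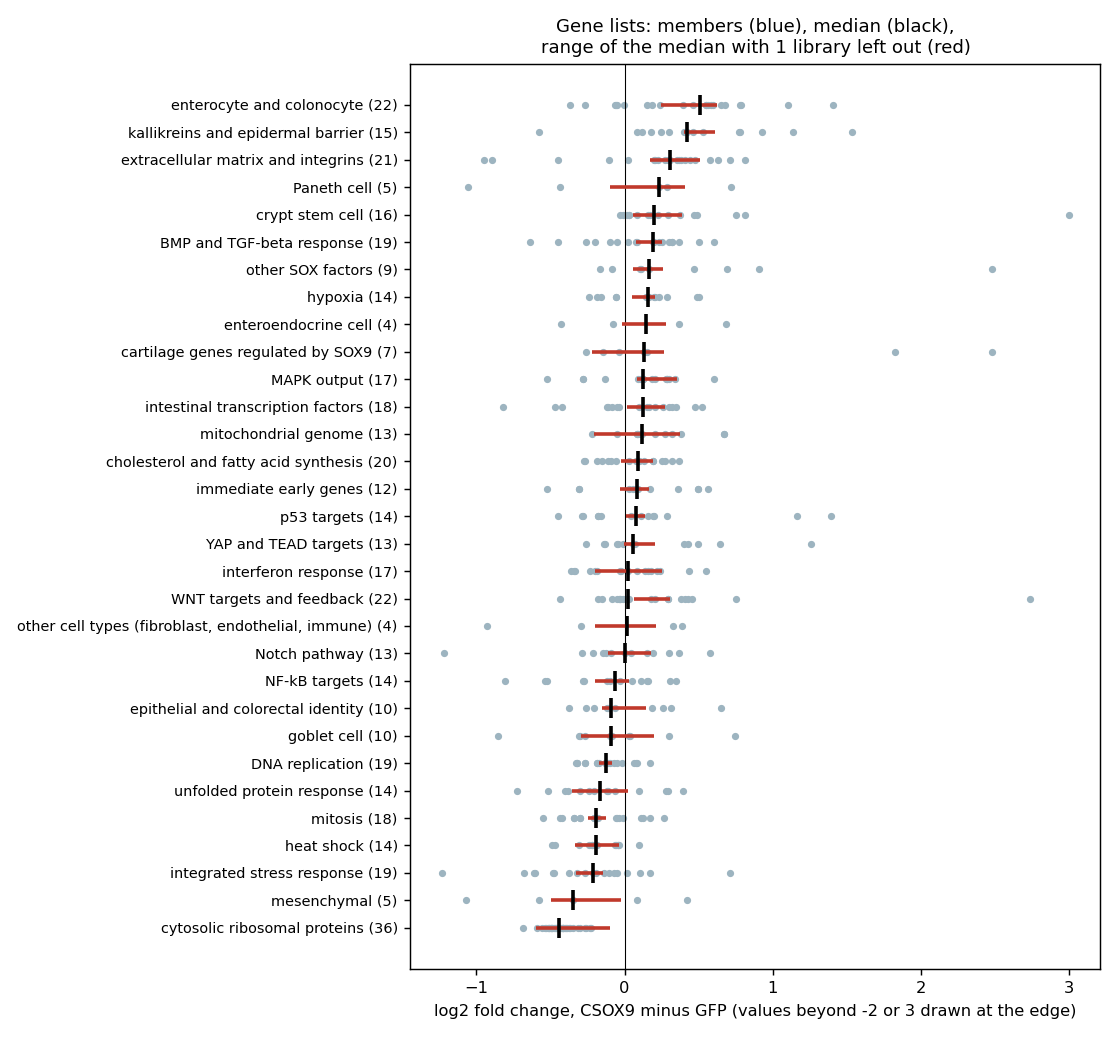
Log2 fold change (CSOX9 minus GFP) of the tested members of 31 gene lists (blue points), with the list median (black) and the range of that median over the 6 fits that leave out 1 library (red). The enterocyte list has the highest median, 0.51, and the ribosomal protein list the lowest, -0.44. Without GFP replicate 2 they move to 0.39 and -0.095, and neither keeps its rank.

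Between CSOX9 and the mean of the 3 mutants, 152 genes were called, 0.941% of those tested, with 96 higher in CSOX9 (0.594%) and 56 lower (0.347%). Counts for the mutants against GFP were 39 (0.241%) in M228, 19 (0.118%) in M303 and 6 (0.0371%) in M379. All of these contrasts share libraries with CSOX9 minus GFP, either the CSOX9 or the GFP ones. GFP enters the mutant contrast only through the filter and the shared estimate of spread, yet the number called was 412 without GFP replicate 2. It was 26, 31 and 54 without CSOX9 replicates 1, 2 and 3. The called genes named above fall into enterocyte and mucin genes (KRT20, MUC13, CEACAM5, MUC12 and MUC17), LYZ, CES2 and PLCL2, transcription factors (SOX6 and TCF7), receptors (CXCR4 and HEG1), the WNT inhibitor APCDD1 and the kinase HUNK, all higher in CSOX9. On the lower side are PHGDH, ITGA5, BEX3, TMEM132A, CD276, SPECC1 and SOX9 itself. SOX9 was read at unequal levels in the groups set against each other, and its part in these differences was not tested.

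Chromosome 9 stood out in the comparison with GFP, a pattern seen only after the values were known and therefore given as a description. Of 658 tested genes on it, 141 (21.4%) had all CSOX9 libraries above all GFP libraries, against 6.6% of all genes, and 12 were below. The other chromosomes had 3.29% to 10.8% above. The genes include PCSK5 (44.4, 25.04 and 54.2 CPM in GFP, 105, 95.7 and 79.5 in CSOX9), the Notch receptor gene NOTCH1 (106, 71.6 and 131 against 180, 136 and 144, a difference of 0.57 and, without GFP replicate 2, 0.36), NTRK2, a neurotrophin receptor gene (3.33 ± 2.01 against 13.7 ± 6.36, SD, n = 3), and GOLGA2, a Golgi matrix gene (76.8 ± 9.72 against 110 ± 2.13, SD, n = 3). The median difference was 0.18, against -0.093 (chromosome 19) to 0.14 (chromosome 18) for the other chromosomes, and it was above 0 in every 10 Mb window with at least 20 genes (mean log2 CPM of at least 1), from 0.047 to 0.36. Relative to the mean of the mutants, the median of 525 chromosome 9 genes was -0.086, -0.13 and -0.11 in the 3 GFP libraries, 0.11, 0.055 and 0.062 in the 3 CSOX9 libraries and -0.024 to 0.031 in the mutant libraries. Over the genes of all other chromosomes together it was -0.018 to 0.014. GFP and CSOX9 libraries thus lay on either side of the mutants, also with GFP replicate 2 left aside.

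**Figure D5:**
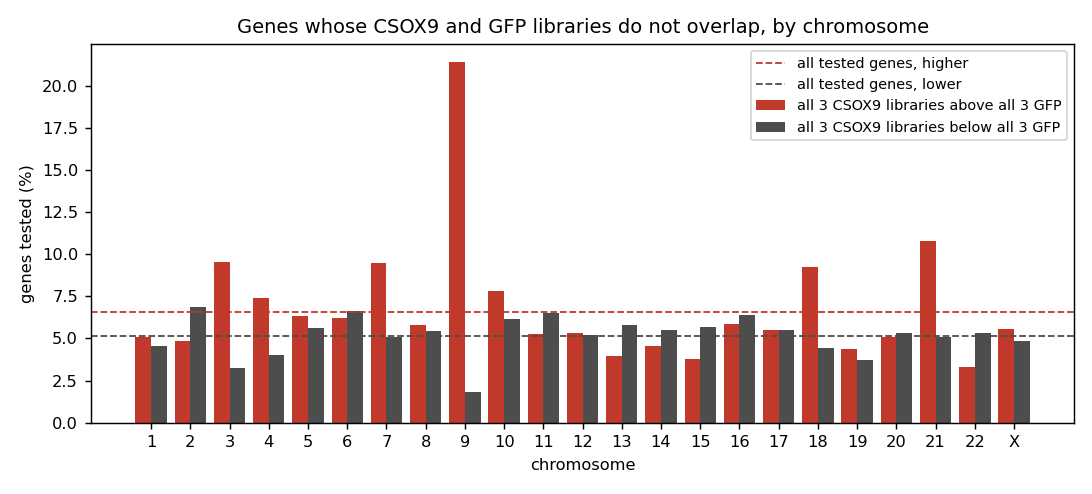
Share of tested genes (percent, vertical axis) whose 3 CSOX9 libraries all lie above (red) or all below (grey) the 3 GFP libraries, by chromosome, with the shares over all genes as dashed lines (6.6% and 5.15%). Chromosome 9 reaches 21.4% on the higher side, and no other chromosome exceeds 10.8%.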

How the data were processed

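RNA from 15 HT115 libraries (oligo(dT) capture, 150-bp paired ends) was sequenced. The submitters' processing notes name STAR 2.7.0a and hg38. The values used are the deposited read counts of featureCounts 2.0.1 over an Ensembl annotation of GRCh38, as named per the file headers. That header's command line has no strand or pair option, so both strands were pooled and each read end counted on its own. The deposited normalized values were not used.

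Genes passing filterByExpr were fitted with edgeR 4.0.16 in R 4.3.3 (TMM, 1 mean per group, 15 libraries, 10 residual degrees of freedom, two-sided quasi-likelihood tests). The steps were tested on simulated data. Alternatives used limma 3.58.1 and DESeq2 1.42.0. With 0 reads, 3 reads would give 0.146 to 0.912 CPM in the 6 libraries, for counting error only. No pair of libraries agreed within sampling noise.

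Named genes are SOX9, every called gene, the 12 smallest p per direction (symbol, mean log2 CPM of at least 1, groups not overlapping), PROM1, KRT20, LGR5, MKI67 and CDX2, and up to 3 members of each list with an unadjusted p under 0.05. Other members are named to describe their list, chosen after their values were seen. Members and lists were chosen with earlier results of these data known.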

Additional observations from a re-analysis of the deposited data

How the results depend on the processing

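Against the 5 genes called between CSOX9 and GFP, edgeR called 5 with RLE size factors, with robust dispersion and with a stricter filter, and these were the same 5. DESeq2 called 67, edgeR without a filter 180, limma voom with quality weights 36 and edgeR on replicates 2 and 3 of every group 1. The fit of CSOX9 and GFP libraries alone called 0, with 557 genes at an unadjusted p under 0.05. Leaving out 1 library gave 0 to 40 calls: 1, 0 and 40 without GFP replicates 1, 2 and 3, and 1, 1 and 6 without CSOX9 replicates 1, 2 and 3. The contrast with the mutants called 253 genes with DESeq2, 382 without a filter, 1738 with voom weights, 42 on replicates 2 and 3, and 26 to 412 with 1 library left out, against 152. It could not be fitted on CSOX9 and GFP alone. SOX9 was called with DESeq2 (0.84, adjusted p = 0.00233) and without a filter (0.85, edgeR adjusted p = 0.000536), and ran from 0.72 to 1.10 with 1 library left out. It was not called with voom weights (0.62) or on replicates 2 and 3 (0.61). LGR5, MKI67 and CDX2 changed sign with voom weights (-0.15, -0.13 and 0.11) and without GFP replicate 2. With 1 library left out they ran from -0.059 to 0.71, from -0.16 to 0.34 and from -0.33 to 0.031. The cause of these changes was not tested.

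Equal replicate numbers paired the libraries only in part. In all 5 groups replicate 1 stood apart from replicates 2 and 3. Its TMM factor was 1.03 to 1.08, against 0.929 to 0.992 in replicates 2 and 3. Its percentage of mitochondrial reads was the lowest of each group. The correlations of same-numbered deviations were 0.209, -0.052 and 0.173 over 13917 genes. GFP replicates 1 and 3 correlated best with the CSOX9 library of the same number, and GFP replicate 2 with CSOX9 replicate 3 (0.053). The main fit held no term for the replicate number, so it did not model the shift of replicate 1. With the replicate block 79 genes were called against GFP and 380 against the mutants, and SOX9 was called at 0.86 (edgeR adjusted p = 0.0381). Depth was lowest in GFP replicate 1, where 3 reads equal 0.912 CPM, so genes near 1 CPM rest on few reads there.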

Other observations

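Several gene groups that the comparison also covers stayed without a call against GFP. The chemokine genes CXCL1 and CXCL3, targets of NF-kB, measured 38.0 to 72.6 and 39.2 to 64.7 CPM in GFP and 55.7 to 69.6 and 62.3 to 69.3 CPM in CSOX9, and the groups overlapped. Both were higher in CSOX9 than in the mutants, by 0.90 ± 0.17 and 0.70 ± 0.14 (edgeR adjusted p = 0.0167 and 0.0239), while the mutants lay below GFP (-0.89 to -0.64 and -0.46 to -0.33). ETV5, a transcription factor gene induced by MAPK signalling, measured 5.61 ± 0.18 CPM in GFP and 4.64 ± 0.21 in CSOX9 (SD, n = 3), and it was lower in CSOX9 than in the mutants by a difference of -0.91 ± 0.19 (edgeR adjusted p = 0.0302). The sprouty genes SPRY1, SPRY2 and SPRY4, feedback inhibitors of that pathway, had all CSOX9 libraries above all GFP libraries (0.60 ± 0.16, 0.34 ± 0.12 and 0.28 ± 0.12) and none was called.

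Heat shock genes had 13 of 14 members negative, with a median of -0.19 that was -0.040 without GFP replicate 2. That library also turned the sign of some medians: without it the unfolded protein response went from -0.16 to 0.026, cholesterol and fatty acid synthesis from 0.090 to -0.022, enteroendocrine genes from 0.14 to -0.014, the interferon response from 0.027 to -0.098, YAP and TEAD targets from 0.057 to -0.0040 and the 10 epithelial markers from -0.090 to 0.14. Others moved without a change of sign, the BMP and TGF-beta response from 0.19 to 0.078, MAPK output from 0.13 to 0.081, intestinal transcription factors from 0.12 to 0.016, hypoxia from 0.16 to 0.051, p53 targets from 0.076 to 0.023, NF-kB targets from -0.065 to -0.0099, immediate early genes from 0.087 to 0.14, mesenchymal genes from -0.35 to -0.11, the Notch pathway from 0.00093 to 0.18, Paneth cell genes from 0.23 to 0.41, the mitochondrial genome from 0.12 to 0.31 and the 4 tested markers of other cell types from 0.017 to 0.080. DNA replication genes had a median of -0.13, and -0.089 without it. None of these lists held a call.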
